A study of Homo sapiens with 8 samples.

Results

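The 10 genes described here encode enzymes of glycolysis, namely GPI, ALDOA, TPI1, GAPDH, PGK1, PGAM1, ENO1, PKM, LDHA and LDHB. They were taken from a fixed list of names and looked up in both deposited tables with GENCODE release 44 on hg38. Loci that keep an Ensembl identifier were matched by it, and assembled loci were named for the same-strand gene with the best overlap of spans, at a Jaccard index (shared length over joint length) of at least 0.5. By this rule 9 of the 10 genes were found among the 62635 genes of the short-read table, and all 9 passed the filter on low values. All 10 were found in the long-read table, where 149 of 301771 transcripts carried their names. ALDOA was not named in the short-read table, because the locus that holds it overlapped most with the readthrough gene ENSG00000285043 (Jaccard index 0.974). That locus is given as the ALDOA locus and is not counted among the 9 genes.

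All libraries came from nuclei of untreated HAP1 cells, a near-haploid human line derived from the chronic myeloid leukemia line KBM-7. Nuclei were extracted with urea and detergent, the insoluble pellet being the chromatin fraction and the supernatant the nucleoplasm fraction, and ERCC synthetic RNAs were added in equal volume to each. Short reads (50 bases, directional, rRNA-depleted) were made from 3 chromatin and 3 nucleoplasm libraries of 3 independent cultures. Long reads (nanopore direct cDNA of chromatin RNA that was poly(A)-tailed by enzyme) were made from 2 chromatin libraries, so only the short reads compare the fractions.

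Glycolysis splits glucose into pyruvate in the cytoplasm. GPI, ALDOA and TPI1 rearrange and split the sugar phosphates, GAPDH, PGK1, PGAM1, ENO1 and PKM carry the triose phosphates to pyruvate with a yield of ATP, and LDHA and LDHB are the subunits of lactate dehydrogenase, which interconverts pyruvate and lactate. The genes are expressed in nearly every cell type, and their mRNAs pass through the nucleus as precursors and finished molecules on the way to the cytoplasm. A chromatin fraction is known to be rich in RNA still held at its gene, and a nucleoplasm fraction in released RNA.

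Recovered depth was 38895027 to 43804918 reads in chromatin and 75737601 to 79523938 in nucleoplasm, so counting error is larger in chromatin. The field of the labels that names the fraction reads chromatin for every library, so fractions came from the titles. MALAT1, a nuclear RNA retained at chromatin, averaged 965711 normalized counts in chromatin against 113268 in nucleoplasm, in the direction of the titles. GAPDH served the study as a nucleoplasm marker in its own fraction check, so its direction is not independent of that choice. Among haematopoietic markers PTPRC, SPI1, GATA1, CD3E and HBB were listed at 0 in all 6 libraries, while VIM, a mesenchymal intermediate filament, averaged 4212 and 14304 normalized counts in chromatin and nucleoplasm. RNA encoded by mitochondria, which lie outside the nucleus, also moved with the fractions, with 74350 to 84684 summed normalized counts over 9 mRNA loci in chromatin and 223142 to 260881 in nucleoplasm. Its part in the results below was not tested.

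Every one of the 9 glycolysis genes was higher in nucleoplasm than in chromatin. The fold ranged from 2.76 for PGK1 to 5.92 for LDHB, with a median log2 fold change, chromatin over nucleoplasm, of -2.14. All 9 passed limma's moderated test on log2(normalized count + 1) at an adjusted p-value under 0.05, and 7 of 9 also passed the 4-fold minimum, the exceptions being PKM and PGK1. Of all 26066 genes tested, 8.47% met both thresholds in nucleoplasm and 21.2% did so in chromatin. Without the fold minimum the shares were 45.2% and 44.2%, and in 46.0% of the genes all 3 nucleoplasm libraries lay above all 3 chromatin libraries, as they did for each of the 9 genes. The median over all tested genes was -0.02 and over 12493 tested protein-coding genes -0.39.

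Summed over the 9 genes, the level was 139412, 113215 and 137509 normalized counts in chromatin replicates 1 to 3, and 526661, 509002 and 540894 in nucleoplasm. The means of 130045 ± 14607 and 525519 ± 15977 (SD, n = 3) differ 4.04-fold, more than the spread within either fraction. As a share of all normalized counts in a library, these genes made up 0.269% ± 0.0233 in chromatin and 0.790% ± 0.0161 in nucleoplasm. In such bulk fractions, more RNA in each nucleus and more nuclei that hold the RNA cannot be told apart.

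**Figure D1:**
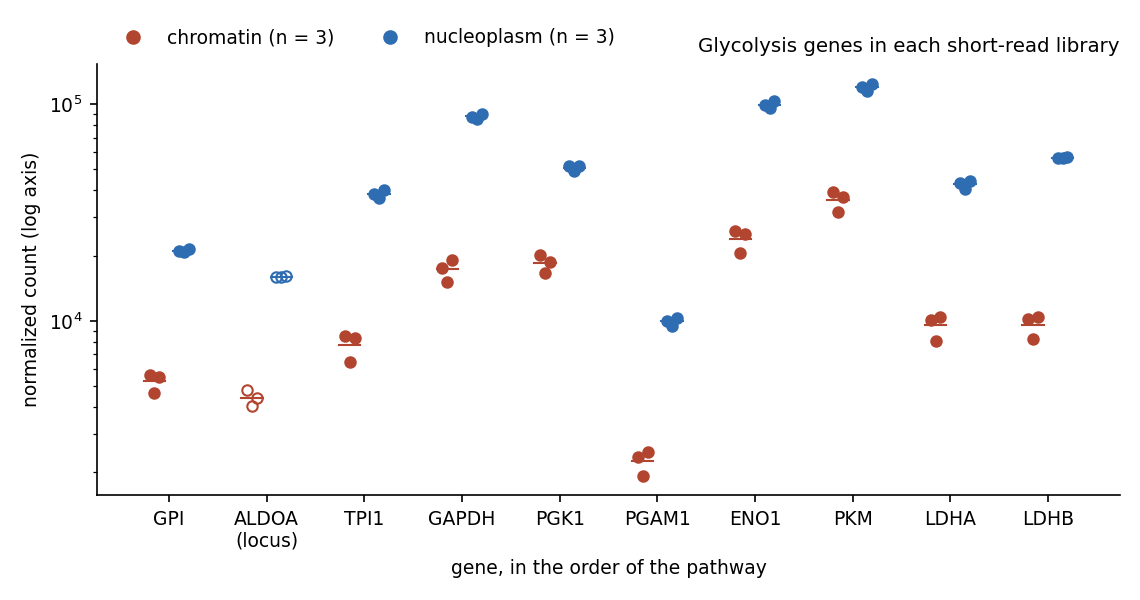
Normalized counts (log axis) of each gene in the 3 chromatin (red) and 3 nucleoplasm (blue) libraries, with a bar at the mean; the open circles are the ALDOA locus, which is named for a readthrough gene. For every gene all nucleoplasm points lie above all chromatin points, and chromatin replicate 2 is the lowest of its group for each.

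GPI converts glucose 6-phosphate to fructose 6-phosphate. It lies on chromosome 19, and its assembled locus runs from 34359480 to 34426168 on the plus strand of hg38. Its normalized counts were 5597, 4646 and 5533 in the chromatin libraries and, in those of nucleoplasm, 20980.4, 20697 and 21423. The groups do not overlap, and the log2 fold change of -2.005 (SE 0.07, adjusted p = 3.03e-08) lies just past the fold minimum. The locus, 66.7 kb long, also covers PDCD2L and the readthrough gene ENSG00000266953, whose reads cannot be told from those of GPI in a gene count.

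ALDOA, the aldolase that splits fructose 1,6-bisphosphate, lies on chromosome 16 within a locus from 30053090 to 30070845 on the plus strand. Its normalized counts were 4817, 4047 and 4415 in chromatin, and 15879, 15843 and 16125 in nucleoplasm. It was higher in nucleoplasm at every replicate, with a log2 fold change of -1.85 (SE 0.06, adjusted p = 2.44e-08) that stays short of 4-fold.

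TPI1 interconverts the triose phosphates. Its locus on chromosome 12, from 6867119 to 6870948 on the plus strand, is the shortest of the 9 at 3.83 kb. Chromatin held 8471, 6444 and 8362 normalized counts and nucleoplasm 38514.5, 36761 and 39972. The log2 fold change was -2.32 (SE 0.10, adjusted p = 7.66e-08). Of the 50-base windows of its canonical transcript, 42.6% occur exactly elsewhere in the genome, most of them (520 of 555) in the processed copy TPI1P1. The TPI1P1 locus averaged 913 ± 107 (SD, n = 3) in chromatin, against 5072 ± 322 in nucleoplasm, and an unnamed locus that also overlaps this copy held 624 ± 121 and 3039 ± 221, so part of the TPI1 reads may be assigned there or the reverse.

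GAPDH oxidises glyceraldehyde 3-phosphate and is often used as a reference gene. It lies on chromosome 12 from 6534512 to 6538374 on the plus strand, in a locus with no other coding gene on that strand. The chromatin libraries gave 17570.1, 15119.8 and 19117 normalized counts and the nucleoplasm libraries 87426, 85456 and 89808. The mean was 17269 ± 2016 in chromatin, against 87564 ± 2180 in nucleoplasm (SD, n = 3). The log2 fold change was -2.35 (SE 0.08, adjusted p = 2.73e-08). Only 4.86% of all tested genes and 2.23% of tested protein-coding genes had a lower log2 fold change. Of the 50-base windows of its canonical transcript, 25.6% occur exactly elsewhere, at 14 other loci.

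PGK1 makes the first ATP of the pathway. Chromatin replicates gave 20132, 16573 and 18722 normalized counts, and nucleoplasm replicates 51834, 49106 and 51696. Its log2 fold change of -1.47 (SE 0.07, adjusted p = 1.69e-07) was the weakest of the 9, with no overlap between the groups. The assembled locus on the X chromosome, from 77910656 to 78129295 on the plus strand, spans 219 kb and takes in ATP7A, a copper transporter gene upstream, so the value is that of the joined locus.

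PGAM1, the mutase that moves the phosphate on phosphoglycerate, lies on chromosome 10 from 97426191 to 97433444 on the plus strand. Its counts were 2357, 1929.9 and 2495 in chromatin and 10026, 9474 and 10286 in nucleoplasm. The log2 fold change was -2.14 (SE 0.09, adjusted p = 6.45e-08). PGAM1 was the lowest of the 9 genes in counts and the one with the least unique sequence, since 90.7% of its 50-base windows occur exactly elsewhere in hg38. Processed copies on chromosome 12, ENSG00000186076 and ENSG00000216285, held 1466 and 1358 of its 1753 windows, and PGAM4 on the X chromosome held 597. The start of the third PGAM1 exon, coding sequence at chr10:97430955-97431074 (plus strand), is shown with the matching stretch of PGAM4 at chrX:77969105-77969224 (minus strand), both from hg38, to show how little separates them. The 2 differing bases are in capitals.
PGAM1: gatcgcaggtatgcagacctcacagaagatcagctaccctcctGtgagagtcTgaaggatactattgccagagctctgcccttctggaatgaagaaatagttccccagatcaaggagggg
PGAM4: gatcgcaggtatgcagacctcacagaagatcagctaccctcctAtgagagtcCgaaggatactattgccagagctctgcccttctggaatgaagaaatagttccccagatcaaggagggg
Of the 71 windows of 50 bases within this stretch, 18 are identical in both genes. The 3 copies were all higher in nucleoplasm, ENSG00000186076 with 552 ± 78.9 normalized counts against 2880 ± 95.2, ENSG00000216285 with 347 ± 42.8 against 1835 ± 85.3, and PGAM4 with 481 ± 79.8 against 2408 ± 103 (SD, n = 3). Together they came to 61.0% ± 2.68 of the PGAM1 count in chromatin and 71.8% ± 0.537 in nucleoplasm. Added to PGAM1 they gave 3641 ± 491 and 17052 ± 670, a 4.68-fold difference, beside 4.39-fold for the PGAM1 means alone. PGAM4 lies antisense to the joined PGK1 and ATP7A locus.

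ENO1, the enolase, reached 25854, 20535 and 25087 normalized counts in chromatin, against 99246, 95518 and 102735 in nucleoplasm. It lies on chromosome 1 from 8861000 to 8879190 on the minus strand. The groups were well apart, and the log2 fold change was -2.06 (SE 0.09, adjusted p = 6.78e-08). Without chromatin replicate 2 it became -1.96 and the call at 4-fold was lost. GPI lost its call in the same way, at -1.92 without chromatin replicate 2 and -1.99 without nucleoplasm replicate 3.

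PKM, the pyruvate kinase that makes the second ATP, had the highest counts of the 9 genes in both fractions. They were 39155, 31675 and 37385 in chromatin and 119435, 114865 and 123985 in nucleoplasm. The locus lies on chromosome 15 from 72197928 to 72231822 on the minus strand. The fold of 3.32 (log2 fold change -1.73, SE 0.08, adjusted p = 1.32e-07) was smaller than for all other genes but PGK1.

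LDHA on chromosome 11, from 18394560 to 18408425 on the plus strand, encodes the M subunit of lactate dehydrogenase. It had 10110.4, 8085 and 10377 normalized counts in chromatin against 43141, 40668 and 43996 in nucleoplasm. The log2 fold change was -2.17 (SE 0.09, adjusted p = 6.73e-08). Of the 50-base windows of the canonical LDHA transcript, 16.7% occur exactly elsewhere, at 7 other loci. LDHB encodes the H subunit, and its locus on chromosome 12 runs from 21536107 to 21757857 on the minus strand. LDHB had 10165, 8207 and 10431 normalized counts in chromatin, nearly those of LDHA, but 56056, 56458 and 56992 in nucleoplasm. Its log2 fold change of -2.56 (SE 0.09, adjusted p = 2.33e-08) was the strongest of the 9, and 1.15% of tested protein-coding genes had a lower one. The LDHB locus is 222 kb long and also holds GYS2, the liver glycogen synthase gene, and ENSG00000285854.

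In the order of their fold changes the genes were LDHB, GAPDH, TPI1, LDHA, PGAM1, ENO1, GPI, PKM and PGK1. Neighbours were compared in pairs, and the sorting itself set the pairs and the direction of each difference. The loci of LDHB, GPI and PGK1 join other coding genes. The within-library log2 ratio of the pair separated the fractions without overlap for GAPDH and LDHB (difference 0.22 ± 0.03, SE), LDHA and TPI1 (0.15 ± 0.02), PKM and GPI (0.27 ± 0.02) and PGK1 and PKM (0.27 ± 0.02). The exact two-sided permutation test gave p = 0.1 for each of these pairs, the smallest p that 3 against 3 libraries allow, and 0.2 after Benjamini-Hochberg adjustment over 8 pairs. The other 4 pairs overlapped, among them TPI1 and GAPDH, which differed by 0.03 ± 0.06.

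The size of the change depends on the scaling between fractions. In the deposited normalized counts the ERCC sequences summed to 94580 to 122151 in the chromatin libraries and 37409 to 49777 in those of nucleoplasm. The paper describes the ERCC standards as equivalent between the fractions. When each library was scaled to the same ERCC total, the median log2 fold change of the 9 genes became -3.47 and the folds ran from 6.91 for PGK1 to 14.8 for LDHB. The median of all tested genes moved by more than 1 log2 unit with it, to -1.33. When each library was scaled to the same gene total, the median became -1.68 against 0.44 for all tested genes, and 1 gene, LDHB at -2.10, stayed past 4-fold. The direction was the same for all 9 genes under the 3 scalings. Each scaling multiplies all genes of a library by the same factor. Each gene's place below the median of all tested genes was therefore nearly fixed in advance and is not a separate result.

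**Figure D2:**
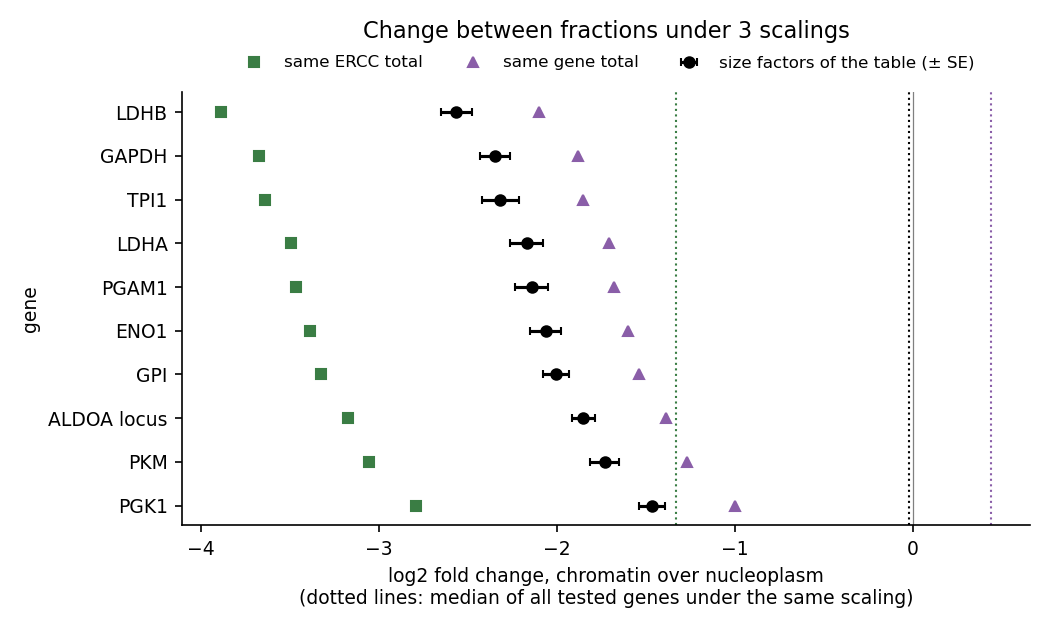
Log2 fold change of each gene, chromatin over nucleoplasm, with the size factors of the deposited table (black circles, bars are ± SE from limma), with equal ERCC totals (green squares) and with equal gene totals (purple triangles); dotted lines mark the median of all 26066 tested genes under the scaling of the same color. The whole set shifts between scalings. The order of the genes and their distance from the median of all genes change little, because each scaling multiplies all genes of a library by the same factor.

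Shares within the summed level of the 9 genes do not depend on that scaling. PKM took 27.8% ± 0.490 of the sum in chromatin and 22.7% ± 0.182 in nucleoplasm (SD, n = 3), and PGK1 took 14.2% ± 0.543 and 9.68% ± 0.145, so these were the genes with a larger share in chromatin. The shares of PGK1, LDHB and GPI include the coding genes joined to their loci, ATP7A in the case of PGK1. A larger share of some genes lowers the shares of the others. GAPDH took 13.3% ± 0.653 in chromatin and 16.7% ± 0.108 in nucleoplasm, and LDHB 7.38% ± 0.183 and 10.8% ± 0.295. TPI1 (5.95% against 7.31%), LDHA (7.31% against 8.11%), PGAM1 (1.74% against 1.89%) and ENO1 (18.3% against 18.9%) were likewise lower in chromatin. When counts were divided by canonical transcript length, the ENO1 difference turned to 0.85 percentage points in favor of chromatin. PGK1 then kept 2.14 points of its 4.55 in favor of chromatin, while LDHA (-0.196 points, exact permutation p = 0.2) and PGAM1 (-0.0217, exact permutation p = 0.7) were no longer separated. Without that division, for these 8 genes the libraries of both fractions were separated, with exact permutation p = 0.1 (the smallest possible, 0.1125 after adjustment over 9 genes). GPI held 4.05% ± 0.0492 and 4.00% ± 0.0555, with overlapping libraries (exact permutation p = 0.4).

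**Figure D3:**
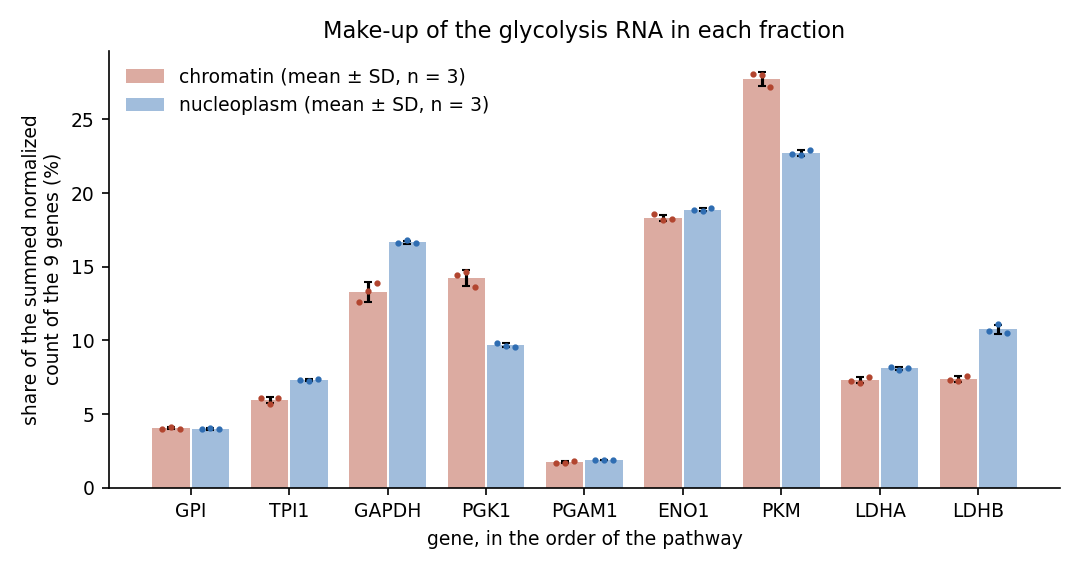
Share (%) of each gene in the summed normalized count of the 9 glycolysis genes, as mean ± SD of 3 libraries (bars) with single libraries as points; red is chromatin and blue is nucleoplasm. PKM and PGK1 take larger shares in chromatin, GAPDH, TPI1 and LDHB clearly smaller ones, and GPI the same to within the spread.

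Per kilobase of canonical transcript, a scale that depends on the transcript length used, PKM (15649 ± 1696 normalized counts per kb), GAPDH (13439 ± 1569) and ENO1 (13378 ± 1614) led in chromatin. Their library ranges overlapped, although PKM was above GAPDH in each of the 3 libraries. LDHB (7368 ± 932), TPI1 (5743 ± 844) and LDHA (4249.9 ± 559) followed. LDHA overlapped with PGK1 (3840 ± 372), although LDHA was higher in each of the 3 libraries. GPI (1275 ± 129) overlapped with PGAM1 (1255 ± 164) at the lower end. In nucleoplasm GAPDH stood first at 68143 ± 1696 per kb, above ENO1 (55680.2 ± 2026) and PKM (51813 ± 1978). The ranges of ENO1 and PKM overlapped, although ENO1 was higher in each of the 3 libraries. LDHB (43363 ± 360.1), TPI1 (28435 ± 1190.3), LDHA (19010.2 ± 771), PGK1 (10573 ± 319), PGAM1 (5510 ± 230.2) and GPI (5099 ± 88.7) followed without overlap. Levels of GPI, PGK1 and LDHB include the genes joined to their loci. Most named long-read TPM of PGK1 lay on PGK1-206 (2405 bases, against 4812 canonical) and of LDHA on LDHA-219 (1288 against 2241). Levels with other lengths were not computed.

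The genes also differ in size. Over the 9 genes, Spearman's rho between canonical transcript length and the log2 fold change was 0.90, longer transcripts having the weaker change, and over the 6 genes alone in their locus it was 0.77. For the length of the locus rho was 0.35 over the 9 genes and 0.89 over those 6 genes, from GAPDH and TPI1 under 4 kb to PKM at 33.9 kb. These correlations run across genes measured in the same libraries and are a description only. Short, abundant coding genes were generally higher in nucleoplasm. Among tested coding genes averaging 5000 or more normalized counts the median log2 fold change was -0.51 and 8.91% were called, and among the 802 of these in loci of at most 40 kb it was -1.34 with 21.6% called. Those limits were chosen with the values of the 9 genes known. Of the 6 glycolysis genes in that last set, 5 were called.

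By a distance between mean-centred log2 profiles over the 6 libraries, the protein-coding genes most like the mean glycolysis profile were ILF2 (distance 0.0380, log2 fold change -2.08), PDIA4 (0.0396, -2.11), TUBB (0.0425, -2.06), CRYZ (0.0461, -2.11) and ZP3 (0.0463, -2.11). ENO1 lay nearest to the mean among the 9 at 0.0482 and PGK1 farthest at 0.771.

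Other genes of glucose metabolism were fixed as lists, whose median changes were smaller than that of the 9 genes, although BSG (-2.63) was lower in chromatin by more than any of the 9. As a background, 45.2% of all tested genes and 57.5% of tested protein-coding ones were higher in nucleoplasm at adjusted p under 0.05. Of 14 tested isozymes and regulators of glycolysis, 11 were higher in nucleoplasm at any fold, ENO3 (0.27) and PFKFB1 (1.67), a muscle enolase and a liver-type regulator of phosphofructokinase flux, were higher in chromatin, and PFKFB4 did not pass (0.21, adjusted p = 0.127). Their median log2 fold change was -1.41. GALM, the galactose mutarotase, alone passed 4-fold at -2.06, and edgeR likewise called 1 of the 14, whereas DESeq2 called 0 (13 of the 14 had an unadjusted p under 0.05) and GALM stood at -1.60 when gene totals were set equal. It was followed by the aldolase ALDOC at -1.94. The enzymes of the regulated early steps, named with their values known, were the phosphofructokinases PFKL (-1.91), PFKP (-1.85) and PFKM (-1.56) and the hexokinases HK1 (-1.28) and HK2 (-1.17).

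All 5 tested genes of the pentose phosphate pathway, which branches off glucose 6-phosphate, were higher in nucleoplasm, with a median of -1.81. RPIA (-2.24) was called, TKT (-1.86) and PGD (-1.81) came next, and PGLS (-1.05) was weakest. Both tested genes of gluconeogenesis, PCK2 (-1.37) and PC (-1.02), were higher in nucleoplasm at adjusted p = 5.98e-07 and 1.54e-06. Limma, edgeR and DESeq2 alike called 0 of these 2 at 4-fold, and both had an unadjusted p under 0.05.

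Among 8 tested genes of glucose, lactate and pyruvate transport, 6 were higher in nucleoplasm. BSG, the chaperone of the lactate carriers, at -2.63 and MPC2, a subunit of the mitochondrial pyruvate carrier, at -2.31 were called, the insulin-responsive glucose transporter gene SLC2A4 was higher in chromatin (0.41), and SLC16A7 did not pass (-0.36, adjusted p = 0.0566). The list median was -1.40. For pyruvate dehydrogenase and the TCA cycle, 20 of 25 loci were higher in nucleoplasm, with a median of -1.17, and limma, edgeR and DESeq2 called 0 of them there at 4-fold, while all 20 had an unadjusted p under 0.05. MDH2 (-1.999) and DLAT (-1.90) were lowest. The 5 loci higher in chromatin were named for PDK1 (0.32), DLST (0.33), PDP2 (0.95), CS (3.27) and OGDH (3.70). CS and OGDH there are minor loci, at 199 and 46.6 normalized counts in chromatin, inside longer loci of the same strand, and the main OGDH locus had 3182 ± 309 in chromatin and 10362 ± 233 in nucleoplasm (-1.71).

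Of 9 tested regulators of the response to oxygen and glucose, 6 were higher in nucleoplasm, led by HIF1A (-1.23) and MLX (-1.21). This stands beside 57.5% of all tested protein-coding genes. ARNT (0.21) and HIF1AN (0.85) were higher in chromatin, while VHL did not pass (0.05, adjusted p = 0.391). The median was -0.45. All 3 tools called 0 of the 9 at 4-fold in either direction, although 8 had an unadjusted p under 0.05 in limma. Of 9 mitochondrially encoded mRNAs, 8 were higher in nucleoplasm with a median of -1.45. MT-CO1 (-2.001) passed 4-fold in limma, edgeR and DESeq2 called 0, MT-ND5 stood at -1.59 and MT-ND1 at -0.60, and MT-ND6 did not pass (0.11, adjusted p = 0.442).

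**Figure D4:**
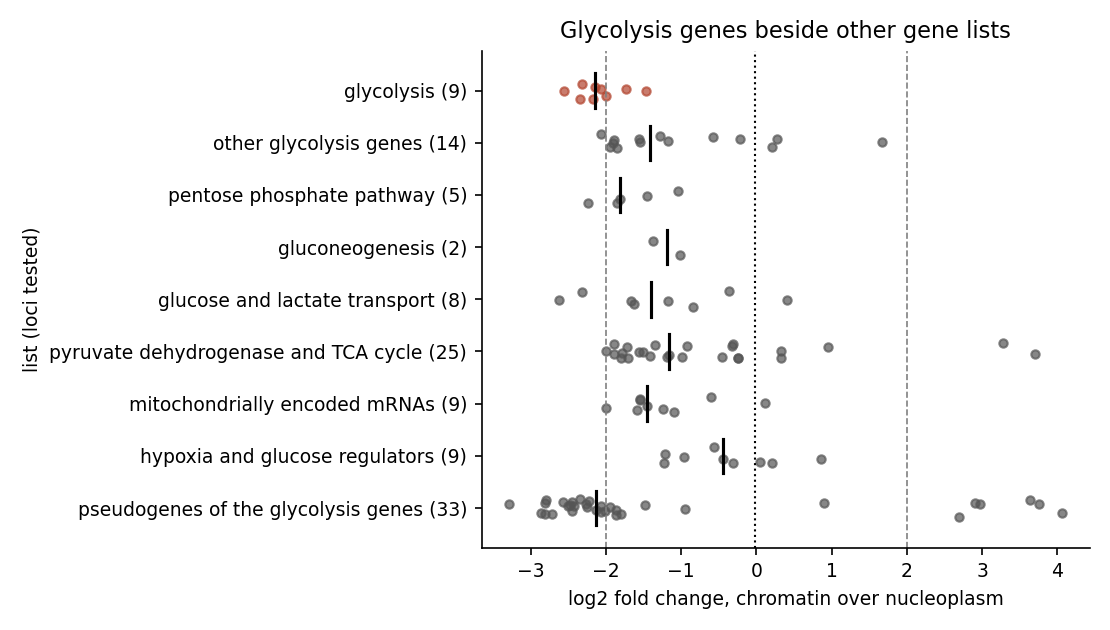
Log2 fold change, chromatin over nucleoplasm, of every tested locus of each list (points) with the list median (black bar); dashed lines mark 4-fold and the dotted line the median of all tested genes. The 9 glycolysis genes (red) lie between -2.56 and -1.47, and the medians of the other lists lie between -2.13 (pseudogenes) and -0.45 (regulators).

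The long reads described only chromatin, as TPM per transcript, in 2 libraries with no test. Transcripts named for the 10 genes summed to 3055 TPM in replicate 1 and 2324 TPM in replicate 2. All genes but PGK1 were above 0 TPM in both. ENO1 had 551 and 779 TPM, PKM 349 and 609, and PGAM1 92.4 and 104. TPI1 had 68.0 and 105 TPM, LDHA 43.4 and 121, and GPI 32.5 and 26.1. GAPDH had 1062 and 544 TPM, LDHB 553 and 20.2, PGK1 302 and 0, and ALDOA 2.81 and 15.6. Between the replicates the log2 TPM of the 10 genes correlated at r = 0.20 (Spearman's rho 0.41, across genes, as a description).

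The transcripts behind these sums also differed between replicates. For GAPDH an assembled transcript over the whole gene had 990 TPM in replicate 1 and 0 in replicate 2, while GAPDH-206, annotated as a retained-intron transcript, had 72.1 and 543. PGAM1-201, the coding transcript, had 90.7 and 0 TPM, and PGAM1-202, without a defined coding sequence, 0 and 104. LDHB-203 and LDHB-211, both coding, had 336 and 191 TPM in replicate 1 but 4.82 and 0 in replicate 2. PGK1-206, a coding transcript that starts upstream in ATP7A, had 300.2 and 0. More even were ENO1-201 (535 and 755 TPM, 97.0% of the mean for the gene), LDHA-219 (40.9 and 106, 89.9%), TPI1-209 (66.1 and 99.8, 95.7%) and GPI-202 (24.1 and 15.1, 66.8%), all coding. For PKM, 1 assembled transcript had 13.3 and 496 TPM. The table lists no exons for it, so the alternative PKM1 and PKM2 messages, which differ in a mutually exclusive exon, could not be separated. For ALDOA, an assembled transcript held 0 and 15.6 TPM. By annotated type, retained-intron transcripts made up 10.0% and 28.9% of the named TPM, coding ones 52.0% and 43.8%, and assembled ones 37.9% and 22.8%.

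Each gene also had long-read transcripts on the opposite strand that covered at least 50% of the span of its canonical transcript. LDHA had 322 and 748 TPM on the opposite strand in replicates 1 and 2, which is 88.1% and 86.1% of its TPM on both strands. TPI1 had 377 and 706 TPM (78.8% and 84.5%), GAPDH 245 and 760.0 (18.7% and 58.3%), LDHB 175 and 648 (24.0% and 80.0%), PKM 297 and 341 (45.9% and 35.9%) and ENO1 165 and 256 (23.1% and 24.7%). PGAM1 (138 and 216 TPM), GPI (42.4 and 74.7) and ALDOA (76.0 and 151) had over 50% opposite in both, and PGK1 (41.5 and 131) in replicate 2. Over the 10 genes the opposite strand held 37.5% and 61.1%.

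Over both strands, GAPDH had 1306 and 1304 TPM in all, LDHB 728 and 810, and PGK1 356 and 197. Taken as ratios, these 3 genes differed less between replicates in their totals than in their named transcripts. PKM (646 and 951 TPM in all), LDHA (366 and 868) and ALDOA (103 and 175) also differed less. ENO1 (716 and 1035 TPM), TPI1 (479 and 836), PGAM1 (230.4 and 319.7) and GPI (74.9 and 101) differed more. Across the 10 genes the replicates correlated at r = 0.80 (rho 0.82) over all transcripts on the strand of the gene and at r = 0.91 (rho 0.85) over both strands. The direct cDNA kit does not record which strand the RNA came from, and the alignment did not use splice motifs to set it. Whether strands had been set for the reads when the TPM were made is not given in the sources used here, and what an opposite-strand share measures depends on that. In the directional short reads no opposite-strand locus covered 50% of the canonical span of any of the 10 genes. Opposite-strand TPM was common elsewhere too. Over protein-coding genes with at least 100 TPM in a replicate (689 and 708 genes), counting only transcripts that cover 50% of the canonical one, the median opposite share was 38.2% and 43.5%, and 36.7% and 39.5% of genes had over 50% opposite. Counted that way, LDHA (88.1% and 87.2%), TPI1 (79.1% and 85.1%) and ALDOA (74.1% and 86.3%) lay above the upper quartile of 63.0% and 68.6% in both replicates, and ENO1 (23.3% and 24.9%) lay near or below the lower quartile of 22.5% and 25.3%.

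**Figure D5:**
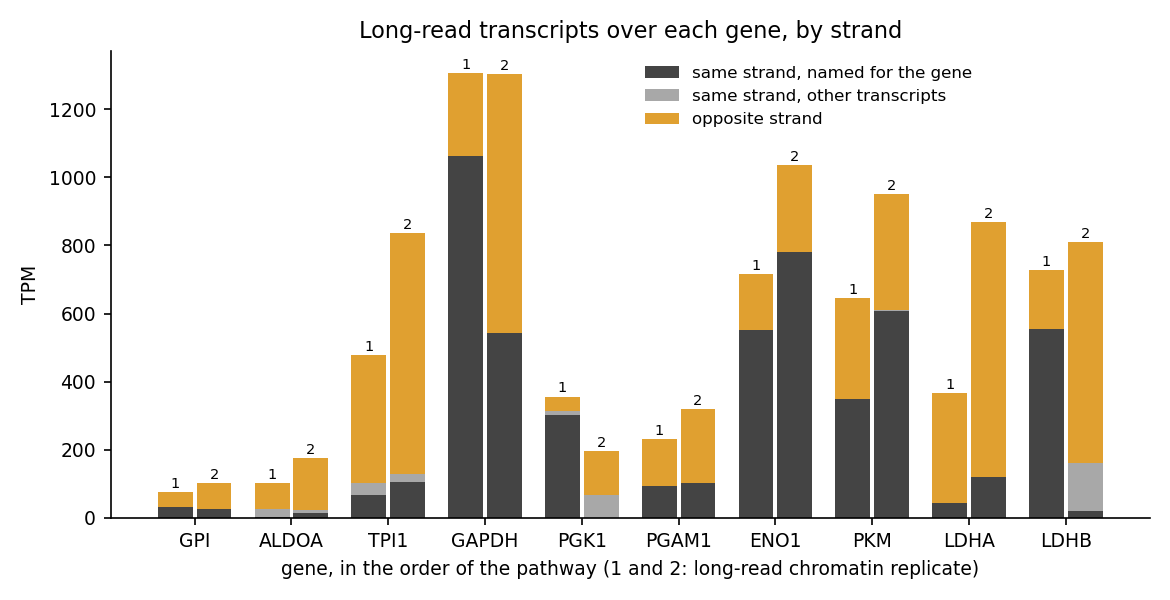
Long-read TPM over each gene in chromatin replicates 1 and 2 (bars marked 1 and 2), stacked as transcripts named for the gene (dark), other transcripts on its strand that cover at least 50% of its canonical transcript (light grey) and transcripts on the opposite strand (orange). The orange part exceeds the rest for LDHA, TPI1, PGAM1, GPI and ALDOA in both replicates, and both bars of GAPDH reach the same height with different make-up.

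Across the 9 genes named in both tables, the chromatin short-read level per kilobase and the summed long-read TPM correlated at r = 0.88 on a log2 scale, both for transcripts named for the gene (rho 0.77) and for both strands (rho 0.93). These points share libraries and an assembly step, and the values are a description.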

How the data were processed

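The members and all lists were chosen with earlier results of these data known. The authors aligned short reads to hg38 with ERCC sequences (HISAT2 2.1.0, per the submitters' processing notes), assembled them with StringTie guided by GENCODE, and merged both fractions. The short-read values the authors deposited are a normalized signal, each gene count being divided by a size factor from DESeq2. For long reads they deposited TPM of each transcript, estimated with StringTie in long-read mode after minimap2 alignment. TPM holds no depth.

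Dividing each short-read value by the smallest of its library gave whole reads for 100% of values in all 6 libraries (tolerance 0.01). Those recovered reads are estimates from coverage and cover counting error only. The filter kept genes that reached 10 normalized counts in 3 or more libraries and spanned more than 200 bases, without ERCC sequences. In R 4.3.3, limma 3.58.1 was fitted with its trend option to log2(normalized count + 1), without covariates, and Benjamini-Hochberg adjustment over 26066 genes. A gene was called at an adjusted p under 0.05 and a log2 fold change beyond 2 or -2. The fold is on the scale with the pseudocount. Per the study's methods the libraries of both fractions came from independent cultures, so chromatin and nucleoplasm of a culture are pairs. The titles do not say whether equal replicate numbers mark the same culture. Same-numbered libraries correlated at 0.0871, 0.0533 and 0.0626 after removal of group means. The main fit and the exact permutation tests did not treat numbers as pairs, and only limma was also fitted with a replicate block. Recovered reads were also tested with DESeq2 1.42.0 and edgeR 4.0.16. Further alternatives were TMM factors, equal ERCC or gene totals, other pseudocounts, filters and folds, a replicate block, and leaving out each library. The limma, edgeR and DESeq2 fits were first tested on simulated counts.

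Named genes were the 10 genes and, from each other list, the 2 highest and 2 lowest tested members plus members of counts of 5 or fewer. For similar profiles they were the 5 nearest coding genes, for pseudogenes the 5 most abundant, and for transcripts the highest per gene and those at 20% or more of its TPM. Genes named outside this rule are marked as such, and 1 gene of a list is not reported here. Windows of 50 bases of each canonical GENCODE transcript were searched exactly in the main chromosomes of hg38, and windows found at over 50 places (repeats in GPI and PGK1) were left out of the shares given.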

Additional observations from a re-analysis of the deposited data

How the results depend on the processing

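All 9 genes kept their direction under each alternative. The count of 7 called genes ranged from 5 to 7 when each library was left out in turn, and the median log2 fold change from -2.22 to -2.03. Under equal ERCC totals the median became -3.47, and under equal gene totals -1.68 with a count of 1. PKM and PGK1 passed 4-fold under equal ERCC totals. GPI fell short of 4-fold under TMM factors (-1.98), edgeR (-1.97) and DESeq2 (-1.91), and ENO1 under DESeq2 (-1.97). A replicate block left the count at 7 and the median at -2.14 and changed no call of a gene. Each library correlated best with its own number, a hint from the data only. Without the 3 genes whose loci join other coding genes, an alternative chosen after seeing the data, the count was 5 and the median -2.16. Dividing by canonical transcript length turned the ENO1 share difference to 0.846 percentage points. With annotated transcripts only, long-read GAPDH had a mean of 308 TPM and PKM 147 TPM. Calls in nucleoplasm under equal ERCC totals and under a fold minimum of 2 were 9 and 9 for other glycolysis genes, 6 and 5 for transport, 15 and 13 for pyruvate dehydrogenase and the TCA cycle, 5 and 5 for the pentose phosphate pathway, 2 and 2 for gluconeogenesis, 3 and 2 for regulators and 7 and 7 for mitochondrial mRNAs. Depth limits single-locus values in chromatin most, and the long-read table gives none.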

Other observations

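The short-read table named 98 pseudogenes of the 10 genes, of which 33 passed the filter. Of these, 26 were higher in nucleoplasm at any fold and 20 were called there (background 8.47% of all tested genes), with a median log2 fold change of -2.13, beside -2.14 for the 9 parent genes. The most abundant were TPI1P1 (-2.48), GAPDHP63 (-1.95), GAPDHP1 (-2.86), LDHBP2 (-2.01) and LDHAP7 (-2.43). By family, the pseudogene counts came to 14.2% and 14.3% of TPI1 in chromatin and nucleoplasm, and to 7.83% and 7.57% of GAPDH. They came to 9.48% and 3.11% of PGAM1, 2.59% and 1.76% of LDHB, and 0.467% and 0.00924% of ENO1. Families were taken by symbol, so unnamed loci over copies, such as the one beside TPI1P1, are not in these shares. Nor are ENSG00000186076, ENSG00000216285 and PGAM4, which together came to 61.0% of PGAM1 in chromatin and 71.8% in nucleoplasm. The counting of reads that match parent and copy equally is not given in the sources used here, so the part of such reads was not tested.

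In chromatin 6 of the 33 pseudogenes were called, a share near the 21.2% of all tested genes called there. All were low in counts. GAPDHP43 was at 51.3 ± 18.4 in chromatin and 2.004 ± 0.460 in nucleoplasm (SD, n = 3), GAPDHP66 at 62.2 ± 15.8 and 3.72 ± 1.26, and ENO1P2 at 55.9 ± 18.3 and 3.45 ± 0.886. ENO1P3 was at 53.1 ± 18.3 and 5.72 ± 1.70, PGAM1P6 at 105 ± 6.45 and 13.5 ± 3.84, and PGAM1P11 at 19.4 ± 8.39 and 2.004 ± 0.460. These were named because they form the whole group, after their values were seen.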
